A study of Mus musculus with 8 samples.

Results

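The toll-like receptors analysed here are 10 mouse genes: Tlr1, Tlr2, Tlr4, Tlr5 and Tlr6, whose proteins stand on the cell surface, and Tlr3, Tlr7, Tlr8, Tlr9 and Tlr13, whose proteins work in endosomes. Other mouse members of the family were not analysed here. They were taken as the probe sets that the array's annotation pairs with exactly 1 of these symbols, which gave 16 of the 45101 probe sets on the array and 10 of the 18194 genes that have a probe set of their own. Each receptor was represented by its brightest probe set over all arrays, and every other probe set is given beside it. Levels were compared between the hypothalamus of 4 Nestin-Pex5-/- mice (numbered 7 to 10) and 4 wild type mice (numbered 1 to 4), each read on its own Affymetrix whole-genome mouse array. The mice of both genotypes were 10 weeks old and received no treatment, and the knockout line was bred into a Swiss Webster background. In Nestin-Pex5-/- mice a floxed Pex5 gene, which encodes the import receptor for proteins of the peroxisomal matrix, is deleted by Cre recombinase under the Nestin promoter. That promoter is active in neural progenitors, which give rise to neurons, astrocytes and oligodendrocytes, whereas microglia have another origin. Whether the wild type mice carried the floxed allele or Cre is not given in the sources used here. The study asked how gene expression differs in peroxisome deficient brain at an age when its pathology progresses.

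Toll-like receptors are germline-encoded sensors of the innate immune system. The surface receptors bind microbial lipids and proteins, the endosomal receptors bind nucleic acids, and nearly all of them signal through the adaptor MyD88 to kinases that activate NF-kB, AP-1 and interferon regulatory factors. In brain they are known mostly from microglia, the resident macrophages, and some of them also from astrocytes and neurons.

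Of the 10 receptors, 6 were expressed at a higher level in Nestin-Pex5-/- than in wild type hypothalamus and 0 at a lower level (limma, Benjamini-Hochberg adjusted over all genes, threshold 0.05). Before adjustment, 7 had a p under 0.05 and were higher, with Tlr6 added, and 0 were lower. Tlr2 and Tlr1 rose the most, to 4.70-fold and 4.43-fold. Tlr7, Tlr13 and Tlr3 rose to between 1.67-fold and 1.98-fold, and Tlr4 to 1.42-fold. Tlr5, Tlr6, Tlr8 and Tlr9 did not pass the test. Over all genes tested, 3.98% were called higher and 0.791% lower, and the median log2 fold change was -0.03. In 6 of the 10 receptors the 4 Nestin-Pex5-/- arrays were above the 4 wild type arrays, against 6.63% of all genes in this direction. These were the 6 called receptors. A call makes such a separation likely, so it is not a further result.

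The sequence before the transcription start is shown for the called receptors that have an entry in the RefSeq promoter table of GRCm38.p6, as receptors that move together may be read beside their promoters. Each run holds 250 bases in the direction of the gene and ends at the base before the start. Capitals mark matches to GAGGAA, a core bound by ETS factors such as PU.1, or to GGGANNNNCC, a core bound by NF-kB, both searched on both strands.
Tlr1: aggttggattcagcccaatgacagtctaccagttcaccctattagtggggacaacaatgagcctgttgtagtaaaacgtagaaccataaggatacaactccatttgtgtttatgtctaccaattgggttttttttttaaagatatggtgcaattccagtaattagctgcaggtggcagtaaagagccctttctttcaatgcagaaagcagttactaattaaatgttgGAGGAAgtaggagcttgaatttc
Tlr2: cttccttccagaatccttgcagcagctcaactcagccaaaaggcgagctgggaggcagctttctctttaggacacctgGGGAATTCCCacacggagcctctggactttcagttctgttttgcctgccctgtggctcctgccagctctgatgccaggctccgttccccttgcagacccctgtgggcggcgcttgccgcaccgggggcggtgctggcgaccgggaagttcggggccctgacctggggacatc
Tlr3: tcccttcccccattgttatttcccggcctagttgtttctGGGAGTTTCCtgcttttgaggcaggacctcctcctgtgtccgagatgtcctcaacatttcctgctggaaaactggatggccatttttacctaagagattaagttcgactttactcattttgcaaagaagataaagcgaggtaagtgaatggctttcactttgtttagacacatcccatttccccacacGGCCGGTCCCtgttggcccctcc
Tlr13: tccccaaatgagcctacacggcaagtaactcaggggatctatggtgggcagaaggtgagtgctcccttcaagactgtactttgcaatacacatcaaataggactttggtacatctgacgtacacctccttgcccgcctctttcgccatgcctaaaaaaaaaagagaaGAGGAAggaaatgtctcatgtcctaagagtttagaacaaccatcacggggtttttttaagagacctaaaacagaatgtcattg
The Tlr1 run lies at chr5:64933559-64933808 on the minus strand, and its GAGGAA begins 23 bases before the start. The Tlr2 run lies at chr3:83841609-83841858 on the minus strand. Its GGGANNNNCC match begins 172 bases before the start and reads the same on either strand. The Tlr3 run lies at chr8:45410381-45410630 on the minus strand, with GGGANNNNCC beginning 211 bases before the start and, on the opposite strand, 23 bases before it. The Tlr13 run lies at chrX:106143025-106143274 on the plus strand, and its GAGGAA begins 83 bases before the start.

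Of the 10 receptors, 8 matched the promoter table, with 10 promoters in all since Tlr1 and Tlr6 have 2 each. GAGGAA was found in 4 of these 10 promoters, against 23.25% of the 32851 promoters of the table over the same 250 bases, and GGGANNNNCC in 3 of 10, against 17.63%. No promoter of these receptors held both. The matches did not divide the receptors by their change. Among the 4 receptors with an entry that were called, 2 held GAGGAA and 2 held GGGANNNNCC, and among the 4 that were not, Tlr8 and Tlr9 held GAGGAA, Tlr5 held GGGANNNNCC and Tlr6 held neither. The other promoter of Tlr1 held neither as well. A match is a description of these letters and was not tested as a binding site.

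**Figure D1:**
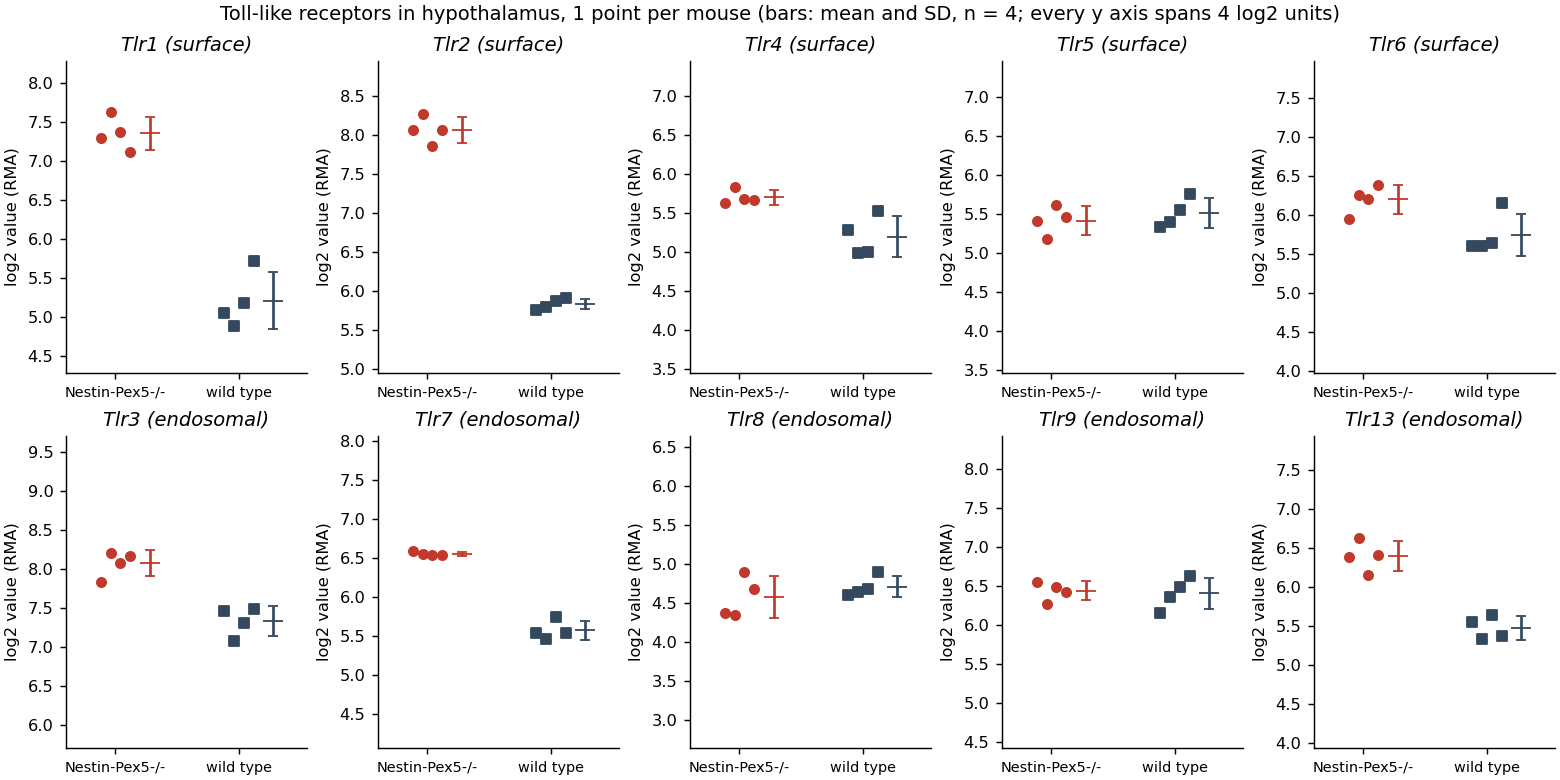
Deposited log2 values (y axis, RMA) of the brightest probe set of each receptor, with 1 point per mouse, Nestin-Pex5-/- left and wild type right of each panel, and the mean ± SD of the 4 mice beside the points; the upper row holds surface receptors and the lower row endosomal ones, and every y axis spans 4 log2 units. The points of both genotypes are separate for Tlr1, Tlr2, Tlr4, Tlr3, Tlr7 and Tlr13, and wild type mouse 4 lies above the other 3 wild type mice for Tlr6.

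Among the surface receptors, Tlr2, which pairs with TLR1 or TLR6 to bind bacterial lipopeptides, rose the most. Its log2 values were 8.07, 8.28, 7.87 and 8.06 in Nestin-Pex5-/- mice, against 5.76, 5.80, 5.87 and 5.91 in wild type mice. The groups were well apart, and the wild type mice lay within a narrow band. The means were 8.07 ± 0.17 and 5.84 ± 0.07 (SD, n = 4 each), and the log2 fold change was 2.23 ± 0.09 (SE), or 4.70-fold with a 95% interval of 4.12 to 5.37 (limma, adjusted p = 4.75e-07). Tlr2 had the 44th largest rise among all genes tested.

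Tlr1, the partner of TLR2 for triacylated lipopeptides, gave 7.30, 7.63, 7.37 and 7.12 in Nestin-Pex5-/- mice, against 5.05, 4.88, 5.18 and 5.72 in wild type mice. All Nestin-Pex5-/- values were higher, and wild type mouse 4 was the nearest to them. The log2 fold change was 2.15 ± 0.17 (SE), or 4.43-fold with a 95% interval of 3.38 to 5.80 (limma, adjusted p = 5.26e-05). In order of size it was the 49th rise.

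Tlr6, the partner of TLR2 for diacylated lipopeptides, had values of 5.95, 6.26, 6.21 and 6.39 in Nestin-Pex5-/- mice, against 5.61, 5.61, 5.64 and 6.15 in wild type mice. The groups overlapped only through wild type mouse 4, which was above the lowest Nestin-Pex5-/- mouse. The fold change of 1.37, with a 95% interval of 1.11 to 1.70, did not pass the test (limma, adjusted p = 0.118). Without wild type mouse 4 the log2 fold change was 0.59 with an adjusted p of 0.00641 (limma). Along the genome Tlr1 and Tlr6 are neighbours on chromosome 5, with 0 protein-coding genes starting between them in the RefSeq annotation.

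Tlr4, the receptor for lipopolysaccharide, was read by 4 probe sets. The brightest, 1418163_at, gave 5.63, 5.84, 5.68 and 5.66 in Nestin-Pex5-/- mice, against 5.28, 4.98, 5.004 and 5.53 in wild type mice. The groups did not overlap, but wild type mouse 4 came within a short distance of the lowest Nestin-Pex5-/- mouse. Its rise of 1.42-fold, with a 95% interval of 1.18 to 1.70, was close to the threshold (limma, adjusted p = 0.0440 over genes and 0.0797 over all probe sets). Leaving out any single mouse other than wild type mouse 4 ended the call, with adjusted p between 0.0687 and 0.137 (limma).

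The probe set 1418162_at was designed from the same mRNA sequence of Tlr4 and showed a larger difference. It gave 5.08, 5.10, 5.22 and 5.07 in Nestin-Pex5-/- mice, against 4.33, 4.40, 4.21 and 4.46 in wild type mice. This was a rise of 1.70-fold (limma over all probe sets, adjusted p = 3.72e-04). The remaining probe sets of Tlr4, 1442827_at and 1430695_at, were designed from expressed sequence tags and overlapped between the genotypes. They differed 1.13-fold and 0.981-fold (limma over all probe sets, adjusted p = 0.465 and 0.933). Both were dim, with means of 3.97 and 3.67 in Nestin-Pex5-/- mice, against 3.79 and 3.70 in wild type mice. Whether they detect the transcript at all is therefore not known.

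Tlr5, the receptor for flagellin, had values of 5.41, 5.18, 5.61 and 5.46 in Nestin-Pex5-/- mice, against 5.33, 5.40, 5.54 and 5.76 in wild type mice. The groups overlapped throughout. The fold change was 0.937 with a 95% interval of 0.784 to 1.12 (limma, adjusted p = 0.724).

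Among the endosomal receptors, Tlr7, a sensor of single-stranded RNA, showed the largest rise. Its brightest probe set gave 6.59, 6.55, 6.54 and 6.54 in Nestin-Pex5-/- mice, against 5.54, 5.46, 5.74 and 5.54 in wild type mice. The Nestin-Pex5-/- mice were nearly equal and all above the wild type mice. The means were 6.55 ± 0.02 and 5.57 ± 0.12 (SD, n = 4 each), a log2 fold change of 0.98 ± 0.07 (SE) or 1.98-fold with a 95% interval of 1.78 to 2.19 (limma, adjusted p = 1.71e-05).

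The other probe sets of Tlr7, 1419848_x_at and 1449640_at, were designed from 1 shared expressed sequence tag and not from the mRNA read by the brightest probe set. They differed 1.08-fold and 1.05-fold and overlapped between the genotypes (limma over all probe sets, adjusted p = 0.696 and 0.863). With the mean of the 3 probe sets in place of the brightest, the log2 fold change of Tlr7 was 0.39 and kept its call (limma, adjusted p = 0.0213).

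Tlr8, the close relative of Tlr7 and its neighbour on chromosome X, had values of 4.37, 4.34, 4.90 and 4.68 in Nestin-Pex5-/- mice, against 4.60, 4.64, 4.68 and 4.90 in wild type mice. Mice 7 and 8 were the lowest of all and the other Nestin-Pex5-/- mice lay among the wild type mice. The fold change was 0.913 with a 95% interval of 0.748 to 1.11 (limma, adjusted p = 0.646).

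Tlr13, a mouse sensor of bacterial ribosomal RNA, gave 6.38, 6.62, 6.16 and 6.41 in Nestin-Pex5-/- mice, against 5.55, 5.32, 5.64 and 5.36 in wild type mice. The groups were apart with no value between them. The rise was 1.90-fold with a 95% interval of 1.61 to 2.24 (limma, adjusted p = 7.04e-04). Tlr13 was read by 1 probe set, which was designed from an expressed sequence tag.

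Tlr3, a sensor of double-stranded RNA that signals through TRIF in place of MyD88, was read by 2 probe sets of the same mRNA sequence. The brightest gave 7.84, 8.21, 8.07 and 8.17 in Nestin-Pex5-/- mice, against 7.46, 7.07, 7.31 and 7.48 in wild type mice. The name of this probe set ends in _s_at, which marks probes that can bind related transcripts as well. It rose 1.67-fold with a 95% interval of 1.41 to 1.99 (limma, adjusted p = 0.00372).

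The other Tlr3 probe set, 1422781_at, gave 6.92, 7.03, 7.23 and 7.40 in Nestin-Pex5-/- mice, against 6.26, 6.28, 6.37 and 6.67 in wild type mice. Here too the groups were separate, with a rise of 1.68-fold (limma over all probe sets, adjusted p = 0.0131).

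Tlr9, a sensor of unmethylated CpG DNA, had values of 6.55, 6.27, 6.49 and 6.43 in Nestin-Pex5-/- mice, against 6.16, 6.36, 6.48 and 6.62 in wild type mice. The genotypes covered the same range. The fold change was 1.02 with a 95% interval of 0.868 to 1.20 (limma, adjusted p = 0.920).

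By class, 3 of 5 surface receptors and 3 of 5 endosomal receptors were called higher. The surface count was 2 on leaving out any single mouse other than wild type mouse 4, and 4 without that mouse. The endosomal count stayed at 3 on leaving out any mouse. The median log2 fold change was 0.50 for the surface class and 0.74 for the endosomal class, and the folds spread more widely among the surface receptors, where Tlr1 and Tlr2 stand apart. Over single probe sets, 7 of the 16 were called higher and 0 lower in the fit of all 45101 probe sets, in which 2.32% were called higher and 0.268% lower. In the exact two-sided permutation test each of the 6 called receptors had p = 0.029, the smallest value that 4 against 4 mice allow. That value follows from the separation of their groups and is not a further result.

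**Figure D2:**
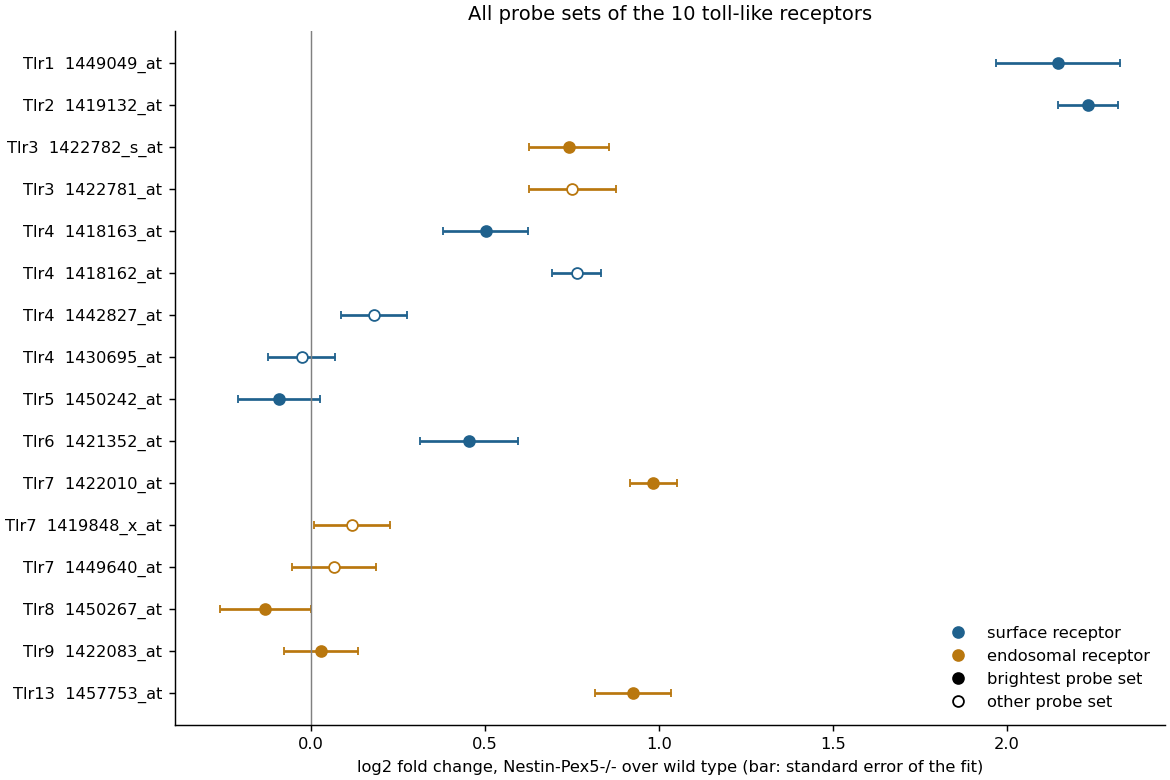
Log2 fold change (x axis, Nestin-Pex5-/- over wild type) of all 16 probe sets of the 10 receptors (1 per line); points are limma estimates, bars their standard errors, filled points the brightest probe set of a gene, open points the other ones, and colour the class. Tlr1 and Tlr2 lie above 2 on this axis, the mRNA-based probe sets of Tlr3, Tlr4 and Tlr7 between 0.50 and 0.98, and the probe sets of Tlr4 and Tlr7 made from expressed sequence tags near 0. The probe set of Tlr13, also made from an expressed sequence tag, lies at 0.92.

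Receptors that pair or are close relatives were compared by their difference in log2 value within each array, for 4 pairs. Probe sets differ in brightness, so only the change of this difference between the genotypes has a meaning. Tlr2 minus Tlr6 was 2.12, 2.01, 1.66 and 1.68 in Nestin-Pex5-/- mice, against 0.16, 0.20, 0.24 and -0.24 in wild type mice. The groups did not overlap, so Tlr2 rose relative to Tlr6, by 1.78 on the log2 scale (exact two-sided permutation test, p = 0.029, 0.038 after Benjamini-Hochberg over the 4 pairs). Tlr1 minus Tlr6 was 1.34, 1.37, 1.16 and 0.73 in Nestin-Pex5-/- mice, against -0.55, -0.72, -0.46 and -0.44 in wild type mice. This too was a separation, of 1.69 (exact permutation test, p = 0.029, adjusted 0.038). The p of 0.029 is the smallest value that 4 against 4 mice allow. The adjusted value rests on pairs that share this smallest p, so no weight is put on it. Both pairs hold Tlr6 and largely follow from the folds given above, so they are not a further result.

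Tlr2 minus Tlr1 was 0.78, 0.64, 0.50 and 0.94 in Nestin-Pex5-/- mice, against 0.71, 0.92, 0.69 and 0.19 in wild type mice. The groups overlapped, and the difference of 0.09 was not larger than the spread between mice (exact permutation test, p = 0.657). Its sign depended on wild type mouse 4, without which it was -0.06. Tlr7 minus Tlr8 was 2.21, 2.22, 1.64 and 1.85 in Nestin-Pex5-/- mice, against 0.94, 0.83, 1.06 and 0.64 in wild type mice. On the brightest probe sets of these neighbouring genes, Tlr7 minus Tlr8 rose by 1.12 (exact permutation test, p = 0.029, adjusted 0.038). Most of this is the rise of Tlr7 itself, of 0.98. Tlr8 was read by a dim probe set, with means of 4.57 in Nestin-Pex5-/- and 4.70 in wild type mice. Its share of background is unknown, so a lack of response of Tlr8 is not shown. With the mean of the 3 probe sets of Tlr7 the difference was 0.52 (exact permutation test, p = 0.029).

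**Figure D3:**
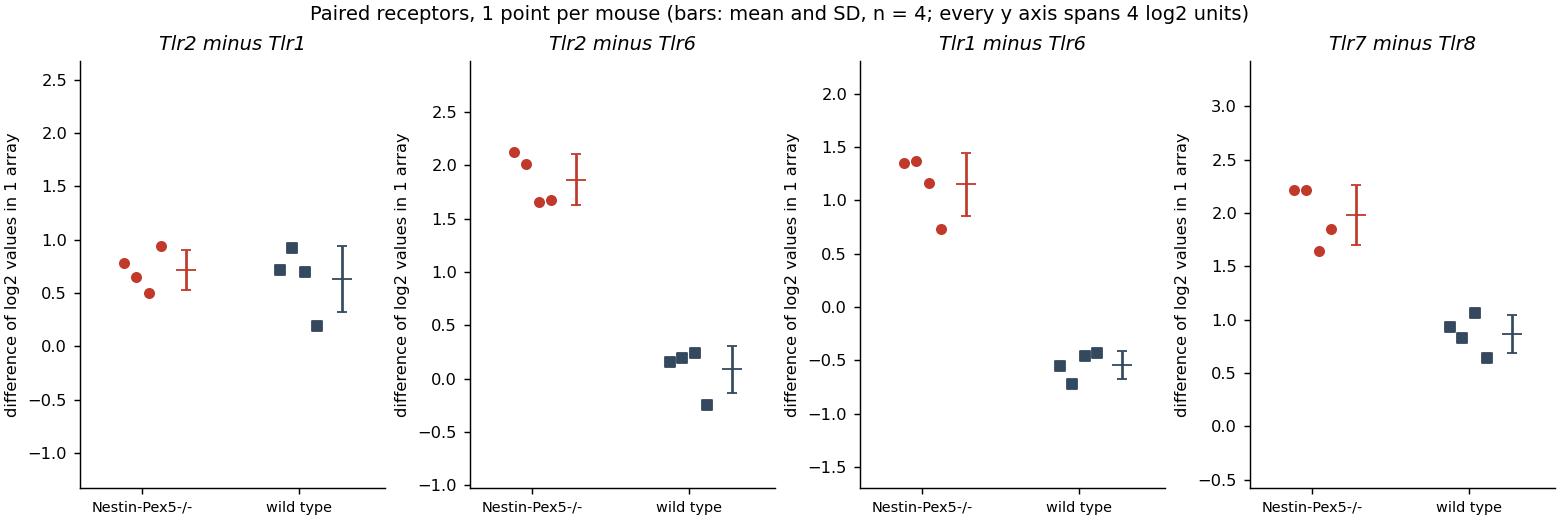
Difference between the log2 values of 2 receptors in the same array (y axis, log2 units, each axis spanning 4) for 4 pairs, with 1 point per mouse, Nestin-Pex5-/- left and wild type right, and the mean ± SD of 4 mice. Tlr2 minus Tlr6, Tlr1 minus Tlr6 and Tlr7 minus Tlr8 are higher in all Nestin-Pex5-/- mice, whereas Tlr2 minus Tlr1 overlaps.

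The genes whose 8 values, centred on their mean, were most like those of a called receptor were taken over all genes by the root mean square difference. For Tlr2 these were Ms4a6d (0.0966), Pik3ap1 (0.105) and Fermt3 (0.108), the gene of kindlin-3 in blood cells. For Tlr1 they were Icam1 (0.110), an adhesion molecule, Fcgr1 (0.137), the high-affinity IgG receptor, and Pik3ap1 (0.147). Pik3ap1, which encodes the signalling adaptor BCAP, was thus near both. Its log2 fold change of 2.19 was close to the 2.15 of Tlr1 and the 2.23 of Tlr2. The values were not scaled, so a gene with a similar fold change lies near a receptor. Nearness thus does not show that they vary together among mice of the same genotype. Tlr7 was nearest to Lrmp (0.0737), Plce1 (0.0841) and Selplg (0.114), and Tlr13 to Plce1 (0.0927), Sash3 (0.124) and Vsir (0.125). For Tlr3 they were Abca9 (0.0790), Lamp2 (0.0822) and Rnf213 (0.0878), and for Tlr4 Gpr137b-ps (0.0497), Slc25a45 (0.0608) and Plod1 (0.0615).

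Of 6 co-receptors and partners of the surface receptors or of a TLR4-like receptor, 4 were called higher and 0 lower. Their median log2 fold change was 0.67. Cd14, which hands lipopolysaccharide and lipopeptides to TLR4 and TLR2, was 7.67-fold higher (limma, adjusted p = 1.40e-05), with means of 9.67 ± 0.11 in Nestin-Pex5-/- and 6.73 ± 0.45 in wild type mice. Ly86, also called MD-1, rose 6.68-fold and Cd180, the TLR4-like receptor it binds, 1.52-fold. Ly96, also called MD-2, the subunit of TLR4 that holds the lipid, rose 1.67-fold. The lipid scavenger receptor Cd36 (1.42-fold, adjusted p = 0.604) and Lbp (0.814-fold, adjusted p = 0.370) did not pass the test, though Cd36 did without wild type mouse 2 (log2 fold change 1.02, adjusted p = 0.00548).

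Among 10 chaperones and endosomal proteases, 5 were higher and 0 lower, with a median of 0.39. Unc93b1, which carries the nucleic acid sensors to endosomes, rose 2.42-fold (limma, adjusted p = 2.94e-05). Of the 5 endosomal proteases in the list, which can cut these receptors to their active form, 4 rose, with Ctss at 3.87-fold, Lgmn at 1.78-fold, Ctsl at 1.54-fold and Ctsb at 1.45-fold, and Ctsk did not pass the test (1.05-fold, adjusted p = 0.826). The folding chaperones of the receptors, Hsp90b1 (1.02-fold, adjusted p = 0.860) and Cnpy3 (0.974-fold, adjusted p = 0.797), did not pass the test.

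Among 5 adaptors measured, 2 were higher and 0 lower, with a median of 0.24. Pik3ap1 rose 4.55-fold (limma, adjusted p = 4.11e-06), a log2 fold change of 2.19 on its brightest probe set and 1.498 on the mean of its probe sets, and Myd88, the shared adaptor, 1.39-fold (adjusted p = 0.0136). Tirap, which bridges TLR2 and TLR4 to MyD88, was at 1.18-fold (adjusted p = 0.0965) and Ticam1, which encodes TRIF, at 0.994-fold (adjusted p = 0.970). Of 12 kinases and ubiquitin enzymes, 0 were called by limma in either direction, near the share over all genes. Before adjustment, 3 had a p under 0.05, all of them higher. The smallest p-values were those of Tab2, a binding subunit of the TAK1 kinase (1.26-fold, adjusted p = 0.0615), and Ikbkb, the kinase IKK-beta (1.18-fold, adjusted p = 0.134). Tab2 passed the threshold without Nestin-Pex5-/- mouse 7 (limma, adjusted p = 0.0236).

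Among 10 transcription factors, 3 were higher and 0 lower, with a median of 0.24. Irf8, a factor of the myeloid lineage, rose 5.19-fold (limma, adjusted p = 1.15e-06), Irf5, which MyD88 engages, 1.78-fold and Relb, an NF-kB subunit, 1.44-fold. The log2 fold change of Irf8 was 2.38 on its brightest probe set and 1.74 on the one with the smallest p. The call of Irf5 was lost with the mean of its probe sets, where the log2 fold change was 0.39 against 0.84 (adjusted p = 0.0532). That of Relb was lost on leaving out any 1 of 5 mice (Nestin-Pex5-/- mice 8, 9 and 10 and wild type mice 2 and 3, adjusted p between 0.0547 and 0.0920). Of 11 negative regulators, 2 were higher and 0 lower, with a median of 0.07. Nfkbie, an inhibitor of NF-kB, rose 1.99-fold and Tnfaip3, the ubiquitin-editing enzyme A20, 1.61-fold. Of all genes in the 8 pathway lists, only Dusp1, a phosphatase of MAP kinases, was lower with a p under 0.05 before adjustment (0.605-fold, limma, adjusted p = 0.0563), and it passed the threshold when either Nestin-Pex5-/- mouse 7 or wild type mouse 4 was left out.

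Among 20 output cytokines, chemokines and costimulators, 7 were higher and 0 lower, with a median of 0.09. The chemokines Ccl3 and Cxcl10 rose 8.13-fold and 6.39-fold, Il12b, a subunit of interleukin-12, 5.25-fold, and Cd86, a costimulator of T cells, 2.61-fold (limma, adjusted p between 2.50e-06 and 2.64e-05). The size for Cd86 depended on the probe set, with a log2 fold change of 1.39 on the brightest, 1.86 on their mean and 2.34 on the one with the smallest p. Il1b, Ccl4 and Ccl5 rose 2.60-fold, 1.85-fold and 1.74-fold, and the call of Ccl5 was lost on leaving out any 1 of 5 mice (Nestin-Pex5-/- mice 8 and 9 and wild type mice 1, 2 and 3, adjusted p up to 0.0685). The cytokines Tnf (1.04-fold, adjusted p = 0.803), Il6 (1.15-fold, adjusted p = 0.152) and Ifnb1 (1.05-fold, adjusted p = 0.733) did not pass the test. Il6 was dim, with means of 3.68 in Nestin-Pex5-/- and 3.47 in wild type mice. Whether its transcript was detected is not known, so a lack of response of Il6 is not shown. Of 7 proteins of host origin that have been reported as ligands, 0 were called by limma in either direction, near the share over all genes. Before adjustment 1 of them had a p under 0.05, and the median of the list was -0.02. The smallest p-values there were those of the matrix proteoglycans Vcan (1.23-fold, adjusted p = 0.118) and Bgn (0.831-fold, adjusted p = 0.511).

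**Figure D4:**
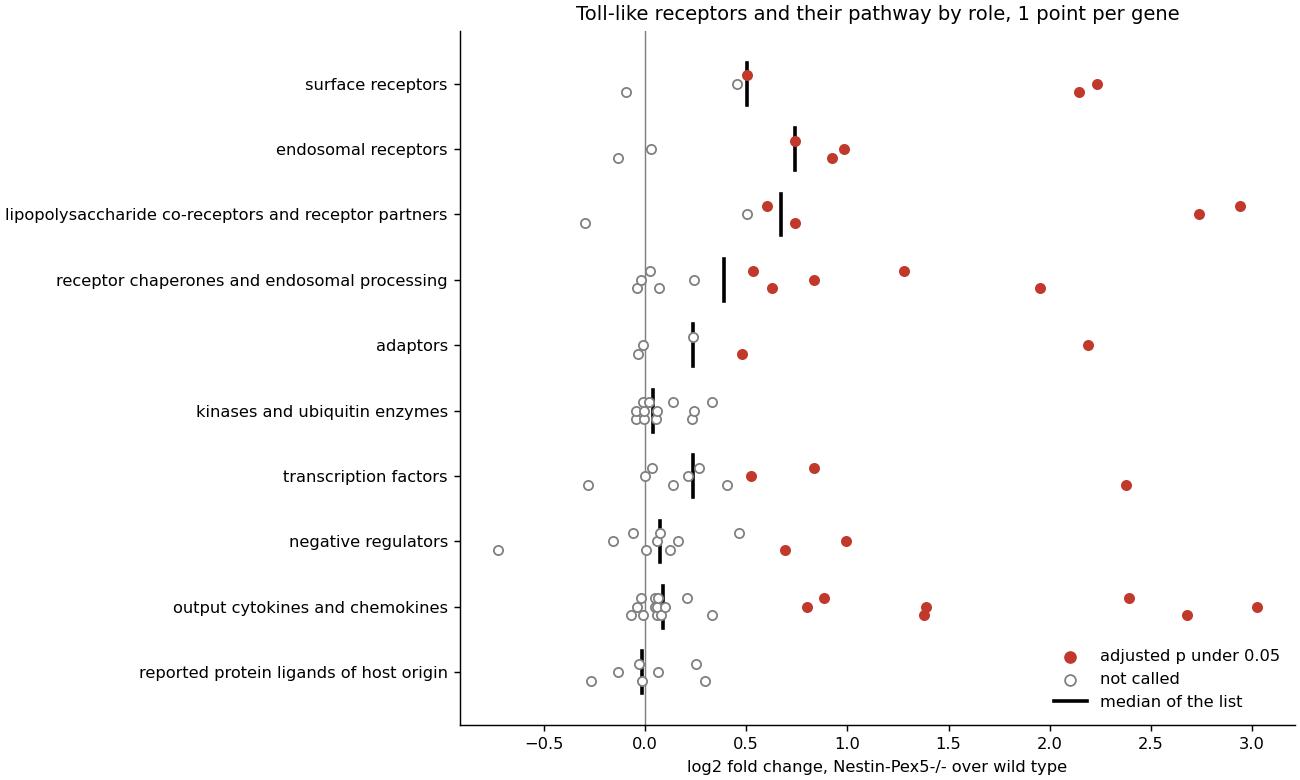
Log2 fold change (x axis, Nestin-Pex5-/- over wild type) for each gene of the receptor classes and 8 pathway lists (1 line each); filled red points passed limma's test at an adjusted p under 0.05, open points did not, and the black line is the median of a list. The calls lie to the right of 0 in every list that has any. The kinases and host ligands have 0 calls, which in lists this short is near the share over all genes (3.98% higher, 0.791% lower).

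The tissue is a mixture of cells, so more cells of a type and more RNA per cell cannot be told apart in these values. Markers of microglia moved with the receptors. The general myeloid list (Aif1, Itgam, Ptprc and others) was higher for 12 of 12 genes with a median log2 fold change of 2.38, and its mean level ranged between 9.64 and 9.93 in Nestin-Pex5-/- mice, against 7.16 and 7.43 in wild type mice. The homeostatic microglia list was higher for 9 of 11 genes with a median of 1.10 and a mean level between 8.85 and 9.21 in Nestin-Pex5-/- mice, against 7.97 and 8.15 in wild type mice. P2ry12 (1.37-fold, adjusted p = 0.0554) and Slc2a5 (0.777-fold, adjusted p = 0.134) were its members that did not pass. The part of these markers in the receptors' change was not tested.

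Each receptor was next set against the mean of these lists in the same array, in 20 comparisons. Relative to the homeostatic list, Tlr2 and Tlr1 were higher in every Nestin-Pex5-/- mouse, by 1.22 and 1.14 on the log2 scale. Both had p = 0.029 (exact permutation test), the smallest value that 4 against 4 mice allow. Benjamini-Hochberg over the 20 comparisons gave 0.036. That adjusted value leans on the many negative comparisons, which mostly return the rise of the lists, so no weight is put on it. Tlr7 and Tlr13 differed from that list by -0.03 and -0.09 on their brightest probe sets, with overlapping groups (exact permutation test, p = 0.771 and 0.600). The value of Tlr7 depended on the probe set, since with the mean of its 3 probe sets it was -0.62 (p = 0.029, exact permutation test). The other 6 receptors were lower relative to the list without overlap, between -0.27 for Tlr3 and -1.14 for Tlr8.

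Relative to the general myeloid list, no receptor was higher. Tlr2 and Tlr1 had the smallest differences, -0.19 and -0.28, with overlapping groups (exact permutation test, p = 0.057 and 0.143). The other 8 receptors lay between -1.44 for Tlr7 and -2.56 for Tlr8. The list mean itself rose by 2.43 and that of the homeostatic list by 1.01, so a receptor that differs little between the genotypes returns these rises with the sign turned, and the negative values add no result to the folds given above. The sign of Tlr1 and Tlr2 relative to microglia markers thus depended on which list was taken.

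**Figure D5:**
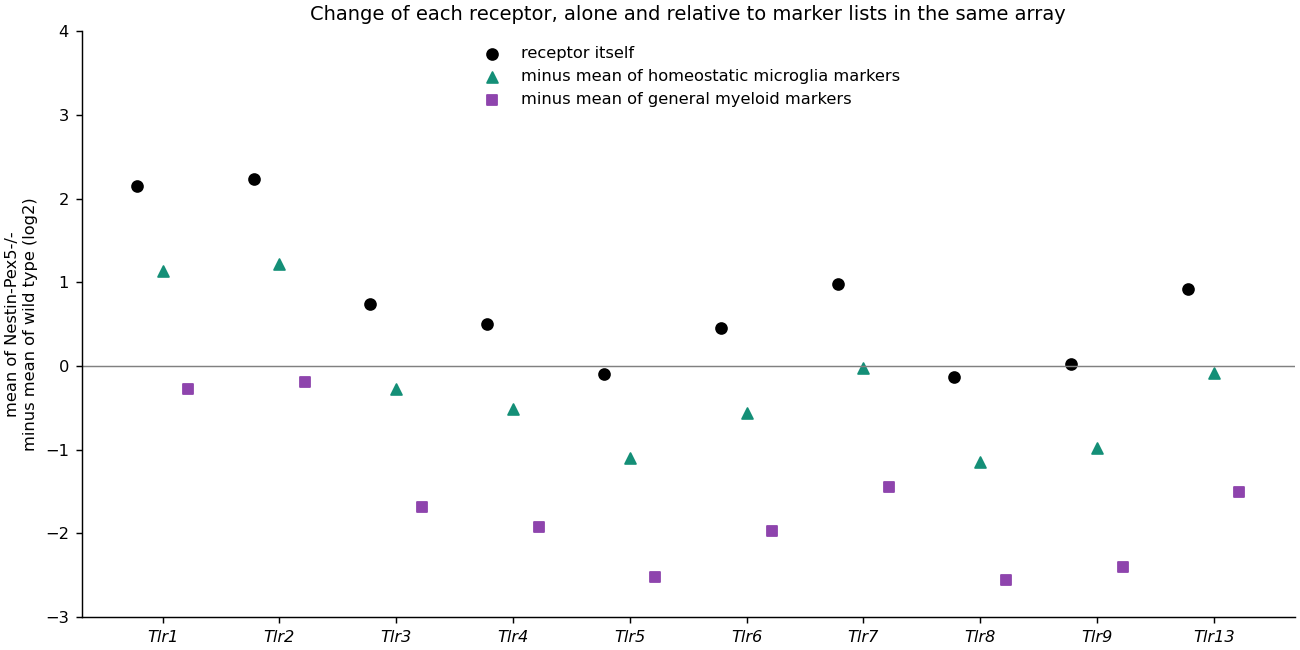
Mean of Nestin-Pex5-/- minus mean of wild type (y axis, log2 units, n = 4 mice each) for each receptor (x axis), for its own log2 value (circles) and after subtracting in each array the mean of 11 homeostatic microglia markers (triangles) or 12 general myeloid markers (squares). Tlr1 and Tlr2 lie above 0 after the first subtraction and just below 0 after the second, and the brightest probe sets of Tlr7 and Tlr13 are close to 0 after the first.

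The calls among markers of other immune cells that can carry these receptors stand beside 3.98% of all genes called higher and 0.791% lower. Of 7 border-associated macrophage markers 1 was higher (Ms4a7), of 10 monocyte and neutrophil markers 1 (Itgal), of 6 dendritic cell markers 1 (Bst2) and of 8 B and T cell markers 0, with 0 lower in each. Lists this short can hold 0 or 1 call at those shares, so the counts are not read as a result about these cells. Before adjustment, Ccr2, Camp, Cxcr2 and Zbtb46 were also lower and Cd79b higher with a p under 0.05 (limma). The mean level of the monocyte and neutrophil list ranged between 5.17 and 5.23 in Nestin-Pex5-/- mice, against 5.12 and 5.46 in wild type mice. Among the cells of neural origin, astrocyte markers were higher for 2 of 8 (Gfap and Aqp4) and neuron markers for 0 of 8. Of 7 oligodendrocyte markers, 0 were called by limma, but all 7 were higher with a p under 0.05 before adjustment and their median log2 fold change was 0.56. Their mean level ranged between 11.9 and 12.3 in Nestin-Pex5-/- mice, against 11.2 and 12.1 in wild type mice, so the groups overlapped. In the hypothalamus list 0 of 10 were higher and 1 was lower (Nkx2-1). Pex5 itself was read at 8.67 ± 0.07 in Nestin-Pex5-/- and 8.66 ± 0.04 in wild type mice by its brightest probe set (SD, n = 4 each), and whether the deleted part is covered by these probes is not given in the sources used here, so these values do not check the labels. The first principal component of all genes (49.3% of the variance) separated the genotypes. The second (18.7%) set wild type mouse 4 apart, which was also the highest wild type mouse for the mean of the surface receptors (5.81, against 5.33 to 5.45 in the other wild type mice) and of the oligodendrocyte markers (12.1, against 11.2 to 11.5). Of 9 meninges and choroid plexus markers, 0 were called. Mouse 4 gave the lowest value of all arrays for Ttr (10.51), Kl (6.18) and Folr1 (6.25). The next lowest wild type values were 14.47, 8.04 and 7.82. Its Col1a1, Col1a2 and Slc6a13 were instead the highest among wild type mice. The third component (12.8%) set Nestin-Pex5-/- mice 7 and 8 (14.55 and 10.64) apart from mice 9 and 10 (-12.11 and -12.02). Wild type mice lay between -9.13 and 4 on it. Ogn was 6.31 and 6.44 in mice 7 and 8, against 8.48 and 8.66 in mice 9 and 10. Its wild type values were 8.13 to 8.49. Col1a2, Mrc1, Cd163 and F13a1 were also lower in mice 7 and 8, Ms4a7 was higher, and Ttr, Kl and Folr1 overlapped. Whether the tissue content of wild type mouse 4 or of mice 7 and 8 differed was not tested.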

How the data were processed

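Total RNA from hypothalamus was labelled with biotin and hybridised to 1 array per mouse. The deposited values are log2 expression values per probe set, which the authors made with RMA (background correction, quantile normalization and summary over the probes); its version, filters and the definition of the probe sets are not given in the sources used here. The values ranged between 2.91 and 15.03, and the array medians between 6.70 and 6.84. No measure of signal over background was used, and all 10 receptors lay below the median level of the genes tested, so the share of background in their values is unknown. The 4 arrays per genotype limit the precision. Separate mice are labelled, but their litters are not.

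Of the probe sets, 34958 are paired with 1 gene by the platform annotation, 932 with several and 9211 with none. Only the first kind was used for genes. For 34754 of these probe sets the symbol was matched by gene identifier to GRCm38.p6. The effect of genotype, the single term of the model, was fitted and tested two-sided by lmFit and eBayes of limma 3.58.1 (R 4.3.3), with p-values adjusted by Benjamini and Hochberg over 18194 genes or, for other probe sets, over all 45101. Single values were compared by an exact two-sided permutation test over 70 assignments. The procedure was tested on simulated data. Plots were made in Python 3.11.15 (matplotlib 3.10.9).

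All receptors were named on every probe set. From each pathway list the up to 4 called genes of largest absolute log2 fold change were named, or the 2 of smallest p where none was called, and for each called receptor the 3 genes of nearest profile. Named besides, after their values were seen, were members that show a contrast within a list (Cd36, Lbp, Ctsb, Ctsk, Hsp90b1, Cnpy3, Tirap, Ticam1, Il1b, Ccl4, Ccl5, Dusp1, Tnf, Il6 and Ifnb1) and called or exceptional markers. The receptors, lists and tests were chosen with earlier results of these data known. Alternatives covered the probe set of a gene, a filter on dim genes, the scaling, the variance model, array weights, the threshold and leaving out each mouse.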

Additional observations from a re-analysis of the deposited data

Results flagged for a closer look

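Of 32 groups of 4 mice tested for a sample far from the others (16 probe sets in 2 genotypes), 2 held one by Dixon's criterion, and chance flags about 1 in 20 groups. For Tlr6, wild type mouse 4 had a value of 6.153, whereas the other wild type mice had 5.606 to 5.638. This is the mouse through which the Tlr6 groups overlap. For the Tlr7 probe set 1449640_at, Nestin-Pex5-/- mouse 9 had 4.835, and the other Nestin-Pex5-/- mice had 4.529 to 4.564.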

How the results depend on the processing

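The count of 6 receptors higher ran between 5 and 7 under the alternatives that could be run, and the count lower stayed at 0. It was 5 receptors higher at an adjusted p under 0.01, with scaling to Actb and with quantile normalization again. Leaving out any single mouse other than wild type mouse 4 also gave 5. Array weights and leaving out wild type mouse 4 gave 7. The filter on genes below the median level gave no value, because all 10 receptors lie below it. Of 160 refits of single receptors, 144 kept direction and side of the threshold. Tlr1, Tlr2, Tlr3, Tlr7 and Tlr13 did so in all. Tlr4 lost its call in 9, among them scaling to Actb (0.37, adjusted p = 0.0619) and quantile normalization again (0.52, adjusted p = 0.0546), and its leave-one-out values ran between 0.43 and 0.61. Tlr6 gained a call with array weights (0.59, adjusted p = 0.00325) and without wild type mouse 4. Signs turned for uncalled receptors: Tlr5 to 0.057 and Tlr8 to 0.041 with array weights, and Tlr9 to -0.10 with scaling to Actb and between -0.055 and 0.10 on leaving out a mouse. The Tlr2 minus Tlr1 difference ran between -0.060 and 0.18 on leaving out a mouse. The causes were not tested.

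Scaling to Actb moved the median of all genes to -0.16, with 540 genes higher and 1086 lower, against 724 and 144 as reported. Array weights gave 1351 and 699, the probe set with the smallest p 898 and 255, leaving out wild type mouse 4 1080 and 331, and leaving out another mouse 543 to 710 higher and 46 to 197 lower. The 23 pathway genes named by rule kept direction in 378 refits, an alternative chosen after seeing the data, and their call in 367. Of the pathway counts, transcription factors called higher moved to 5 with array weights and without wild type mouse 4, negative regulators to 4 with the smallest p, and kinases to 1 (Tab2) with 4 alternatives. With array weights 2 negative regulators were called lower (Dusp1 and Cyld) and 1 host ligand higher (Vcan), against 0 as reported. With the mean of its probe sets the log2 fold change of Tlr7 was 0.39, Tlr7 minus Tlr8 0.52, Tlr7 minus the homeostatic list -0.62 and that of Pik3ap1 1.498. With the smallest p Irf8 moved to 1.74 and Cd86 to 2.34. With the filter on dim genes, partners moved to 2, transcription factors to 1 and adaptors, negative regulators and outputs to 0, since fewer genes were tested. No paired analysis was possible because the genotypes share no mouse numbers.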
